A study of Mus musculus with 8 samples.

Results

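Glutamine is the most abundant free amino acid in blood and serves proliferating cells as a source of nitrogen and carbon. Cells take it up through sodium-coupled carriers such as Slc1a5 and Slc38a2, make it from glutamate with the enzyme encoded by Glul, and exchange it for essential amino acids through the pair Slc7a5 and Slc3a2. When amino acids run short, the kinase Gcn2 (Eif2ak4) phosphorylates the initiation factor eIF2, which lowers translation in general but favors translation of the transcription factor Atf4. Atf4 then activates genes of amino acid synthesis and uptake, among them Asns, Slc7a11, Slc3a2 and Slc7a5, and Ddit4, a brake on the growth-controlling kinase complex mTORC1. Because Atf4 is controlled largely at translation, its transcript level is only a partial measure of the pathway. MYC proteins are known to raise glutamine uptake in several cell types, and cooperation of MYCN with ATF4 in the control of SLC1A5 has been described in human neuroblastoma cells.

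The genes described here are 9 members of this supply route, listed by name: Slc1a5, Slc7a5, Slc3a2, Slc7a11, Slc38a2, Glul, Atf4, Asns and Ddit4. All probe sets annotated to 1 of these genes alone were used, which gave 17 of 34958 single-gene probe sets and 9 of 18194 genes. RNA of 8 untreated tumors from mice of the LSL-MYCN;Dbh-iCre model was hybridized to Affymetrix whole-genome mouse arrays, 1 array for each tumor. Tumors 7 and 8 arose in the superior cervical ganglion, which belongs to the sympathetic chain at the neck, and tumors 1 to 6 in the adrenal. Tumors of both sites carried the same alleles: a human MYCN cDNA behind a loxP-flanked stop cassette in the ROSA26 locus, driven by the CAG promoter, and a Cre recombinase under control of the Dbh promoter, which is active in noradrenergic cells. The study describes the tumors profiled for expression as those of heterozygous mice. Age is not given for the 8 arrays in the sources used here, nor whether each tumor came from another mouse, so p-values measure the spread between these tumors. No tumor without the transgene was analysed here, and the comparison that the labels allow is that of the 2 sites.

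Values are log2 expression values, so that a difference of 1 is a doubling. A probe set was called detected when it exceeded the 95th percentile of 84 probe sets for odorant, pheromone and taste receptors on the same array, a limit of 6.71 to 7.21. The arrays of tumors 7, 6 and 1 stood apart before any of the 9 genes was considered. Tumor 7 was low in noradrenergic neuroblast markers, with a mean of 8 markers of 9.84, against 12.69 to 13.12 in the other 7 tumors, although Isl1 was still at 13.48 and 7 of the 8 markers were detected. Dbh, whose promoter drives Cre, was at 9.07 in tumor 7, against 12.53 to 13.54 elsewhere. Tumor 6 held liver transcripts, with a mean of 10 hepatocyte markers of 12.34 and all 10 detected, against 5.82 to 6.32 and at most 2 detected in the others. RNA integrity was read from Gapdh, whose 3′ probe set exceeded its 5′ probe set by 5.51 in tumor 1, 1.57 in tumor 7 and 0.47 to 1.14 elsewhere. For beta-actin the same difference was 2.77 in tumor 1, 1.85 in tumor 7 and 0.64 to 1.35 elsewhere. In bulk tumors, a lower content of a cell type and less RNA per cell cannot be told apart.

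Short stretches of the promoters of Asns and Slc7a11 are shown because both genes are textbook targets of Atf4 and because, among the members, these were the windows with a match to its core element. The element searched was TGATGNAA on both strands, the pattern of a C/EBP site fused to an ATF site, in the window of 250 bases before to 50 bases after the annotated start (RefSeq, GRCm38.p6). Capitals mark the matches and N stands for any base.
Asns, chr6:7693160-7693459, minus strand: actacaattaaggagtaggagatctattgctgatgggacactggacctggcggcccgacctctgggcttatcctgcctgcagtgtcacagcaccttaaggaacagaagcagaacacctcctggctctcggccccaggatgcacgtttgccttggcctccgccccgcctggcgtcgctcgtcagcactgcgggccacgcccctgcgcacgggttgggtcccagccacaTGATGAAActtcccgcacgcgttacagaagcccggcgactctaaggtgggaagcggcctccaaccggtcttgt
Slc7a11, chr3:50443564-50443863, minus strand: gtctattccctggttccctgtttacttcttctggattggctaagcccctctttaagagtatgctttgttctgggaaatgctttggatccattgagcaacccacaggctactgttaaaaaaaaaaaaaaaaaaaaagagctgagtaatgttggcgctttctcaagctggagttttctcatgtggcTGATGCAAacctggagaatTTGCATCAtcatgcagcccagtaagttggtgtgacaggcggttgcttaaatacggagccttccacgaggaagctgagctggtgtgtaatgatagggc
Asns had 1 match, which began at position -23 relative to the start, which is counted as 0. Slc7a11 had 2 matches, 1 on each strand, at positions -66 and -47. Of 32851 windows in the RefSeq set, 1304 (3.97%) held at least 1 match and 23 (0.0700%) held 2 or more. Windows were present for 7 of the 9 members, and Slc38a2, Slc3a2, Glul, Atf4 and Ddit4 had no such letters in theirs. The E-box CACGTG, the sequence that MYC proteins prefer, was in none of the 7 windows and in 2349 (7.15%) of all windows. A match describes the letters of a window and not a bound site.

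Of the 9 genes, 8 were detected in all 8 tumors, as were 54.6% of all genes. Slc7a11 was the exception, since neither of its probe sets was detected in any tumor, as was the case for 30.9% of all genes.

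Slc1a5 encodes ASCT2, a carrier that exchanges neutral amino acids and is a main route of glutamine uptake in many tumors. Its probe set 1416629_at had values of 9.63 in tumor 7 and 7.18 in tumor 8 of the ganglion, and a lowest, median and highest value of 6.80, 7.34 and 7.95 in the adrenal tumors. Tumor 7 alone was high, whereas tumor 8 lay inside the adrenal range, so the groups overlapped. The spread over all 8 tumors was 2.83 on the log2 scale, a 7.13-fold range, and the SD of 0.90 was higher than that of 96.1% of the genes tested. In tumor 4 the value was only 0.07 above the background limit of its array. The second probe set, 1440379_at, was above background in tumor 7 alone, where it was 6.92, against 6.20 to 6.47 in the other 7 tumors. Both probe sets therefore had their highest value in the same tumor. They were correlated over the 8 tumors (Pearson r = 0.93, exact permutation p = 0.00821, adjusted p = 0.0331 over 10 pairs of probe sets, Spearman rho = 0.81, p = 0.0218, adjusted p = 0.0726), and without tumors 4 and 7, the ones farthest from the median, r was 0.62, so the relation rested largely on these. Tumor 7 exceeded the mean of the others by 2.28 in Slc1a5, and 148 of 16254 genes (0.911%) were higher there by at least as much. Genes that were lower there by as much were not counted. Tumor 7 is also the tumor low in neuroblast markers, whose part in this value was not tested.

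Slc7a5 and Slc3a2 encode LAT1 and 4F2hc, the light and heavy chain of a shared heterodimer. Slc7a5 carries large neutral amino acids such as leucine into the cell in exchange for glutamine, and Slc3a2 brings the carrier to the plasma membrane. Slc7a5 was 11.58 in tumor 7 and 10.84 in tumor 8, against a lowest, median and highest value of 10.01, 10.44 and 10.90 in the adrenal tumors. Both ganglion tumors lay high in this order, yet adrenal tumor 2 exceeded tumor 8. Slc3a2 was 10.96 in tumor 7 and 10.90 in tumor 8, and 10.34, 10.61 and 11.20 at the lowest, median and highest of the adrenal tumors. Here tumor 2 was the highest of all, and tumor 1 was the lowest for both chains.

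Across the 8 tumors the 2 chains ordered the tumors in nearly the same way. Pearson r was 0.78 (exact permutation p = 0.0236, adjusted p = 0.221 over 36 pairs of members) and Spearman rho was 0.90 (exact permutation p = 0.00456, adjusted p = 0.164), so the relation did not pass the correction. Leaving out tumors 1 and 7, the farthest from the median of Slc7a5, gave r = 0.86, and leaving out tumor 7 alone gave r = 0.91.

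Slc38a2 encodes SNAT2, a sodium-coupled carrier of small neutral amino acids, glutamine included, which is known to be induced when amino acids are scarce. Its values on 1426722_at were 12.50 in tumor 7 and 13.06 in tumor 8, and 12.68, 12.91 and 13.10 at the lowest, median and highest of the adrenal tumors. Tumor 7 was the lowest of all and tumor 8 the second highest. The whole range was 0.60, a 1.51-fold range. Probe set 1429594_at also had tumor 7 lowest, with 7.38 in tumor 7 and 7.91 in tumor 8, against 7.66 to 8.14 in the adrenal tumors. Probe set 1429593_at ordered the tumors otherwise, with 9.98 and 9.84 in tumors 7 and 8 and 9.45 to 10.51 in the adrenal tumors, and its correlation with 1426722_at was weak (r = 0.17, exact permutation p = 0.687, rho = -0.05, p = 0.935).

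Slc7a11 encodes xCT, the cystine and glutamate exchanger that pairs with Slc3a2 and feeds glutathione synthesis. Both of its probe sets were near the bottom of the scale. On 1443536_at the ganglion tumors 7 and 8 were both at 4.37, and the adrenal tumors between 3.72 and 4.44. On 1420413_at the values were 4.54 and 4.17 in tumors 7 and 8 and 4.01 to 4.26 in the adrenal tumors. All 16 values were 2.19 to 3.40 below the background limit of their array, and none exceeded log2 5, so Slc7a11 was not tested and its order over the tumors carries no level. A transcript that these probes do not match would also read as background.

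**Figure D1:**
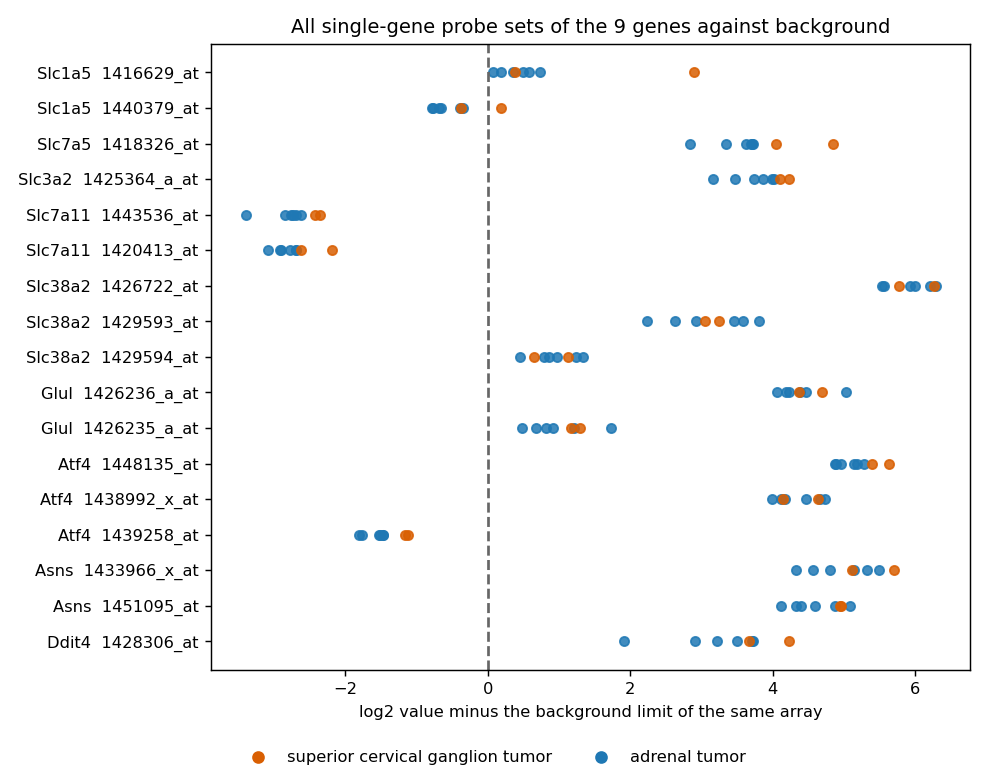
Log2 value minus the background limit of the same array (horizontal axis) for all 17 probe sets of the 9 genes (rows), with 1 point for each ganglion (orange) or adrenal (blue) tumor. Of these, 13 probe sets lay right of 0 in all tumors, and 3, both of Slc7a11 and 1439258_at of Atf4, lay left of 0 in all tumors.

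Glul encodes glutamine synthetase, which is abundant in astrocytes and in the hepatocytes around the central vein of the liver. The probe set 1426236_a_at was 11.43 in tumor 7 and 11.17 in tumor 8, and 11.20, 11.31 and 11.74 at the lowest, median and highest of the adrenal tumors. The other 7 tumors lay within 11.17 to 11.43 and adrenal tumor 6 was above them. Tumor 6 was also the highest on 1426235_a_at, with 8.44, against 7.56 to 8.09 in the other 7. Tumor 6 is the tumor in which all 10 hepatocyte markers were detected, and 5.19% of all genes had their highest value in it. It also stood apart in 6 adrenal cortex markers, with a mean of 7.70 in tumor 6, against 5.99 to 6.30 elsewhere, all 6 highest there and 5 detected, against at most 2 in another tumor. The part of liver and cortex transcripts in the Glul value was not tested.

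Atf4 encodes the transcription factor itself. On 1448135_at the ganglion tumors had 12.36 in tumor 7 and 12.19 in tumor 8, and the adrenal tumors 11.85, 12.05 and 12.16 at their lowest, median and highest. Both ganglion tumors lay above all adrenal tumors, by a margin of 0.02 for tumor 8. This probe set varied little, with an SD of 0.16, higher than that of 19.7% of genes only. The second probe set above background, 1438992_x_at, did not show this order: it was 11.37 in tumor 7 and 10.94 in tumor 8, against 10.83 to 11.64 in the adrenal tumors. A name ending in x_at marks probes that can match further sequences. The remaining probe set, 1439258_at, was below background in all tumors.

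Asns encodes asparagine synthetase, which uses glutamine as nitrogen donor to make asparagine. Its values on 1433966_x_at, whose probes by this name can also match further sequences, were 12.44 in tumor 7 and 11.91 in tumor 8. The adrenal tumors formed a lower and an upper part, with 11.28, 11.44 and 11.53 in tumors 6, 3 and 4, and 12.32, 12.37 and 12.53 in tumors 1, 5 and 2. Tumor 7 lay with the upper of these, and tumor 8 lay in the gap between them. The second probe set, 1451095_at, gave a similar order (r = 0.91, exact permutation p = 0.00104, adjusted p = 0.0104 over 10 pairs of probe sets, rho = 0.81, p = 0.0218, adjusted p = 0.0726; r = 0.83 without tumors 3 and 6). There tumors 7 and 8 had 11.69 and 11.73, and the adrenal tumors 11.04 to 12.29, again with tumor 6 lowest and tumor 2 highest.

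Ddit4 encodes REDD1, which is induced by Atf4, by hypoxia and by glucocorticoids. It was 10.40 in tumor 7 and 11.03 in tumor 8, and 9.09, 10.33 and 10.59 at the lowest, median and highest of the adrenal tumors. Tumor 8 was the highest of all and tumor 1 was far below the rest, the other 7 tumors being between 10.03 and 11.03. Tumor 1 was also the lowest tumor for Slc7a5 and Slc3a2, and it is the tumor with the large 3′ to 5′ difference of Gapdh. Of all genes, 11.5% had their lowest value in tumor 1, against 3 of the 8 members tested. The part of RNA integrity in these values was not tested.

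**Figure D2:**
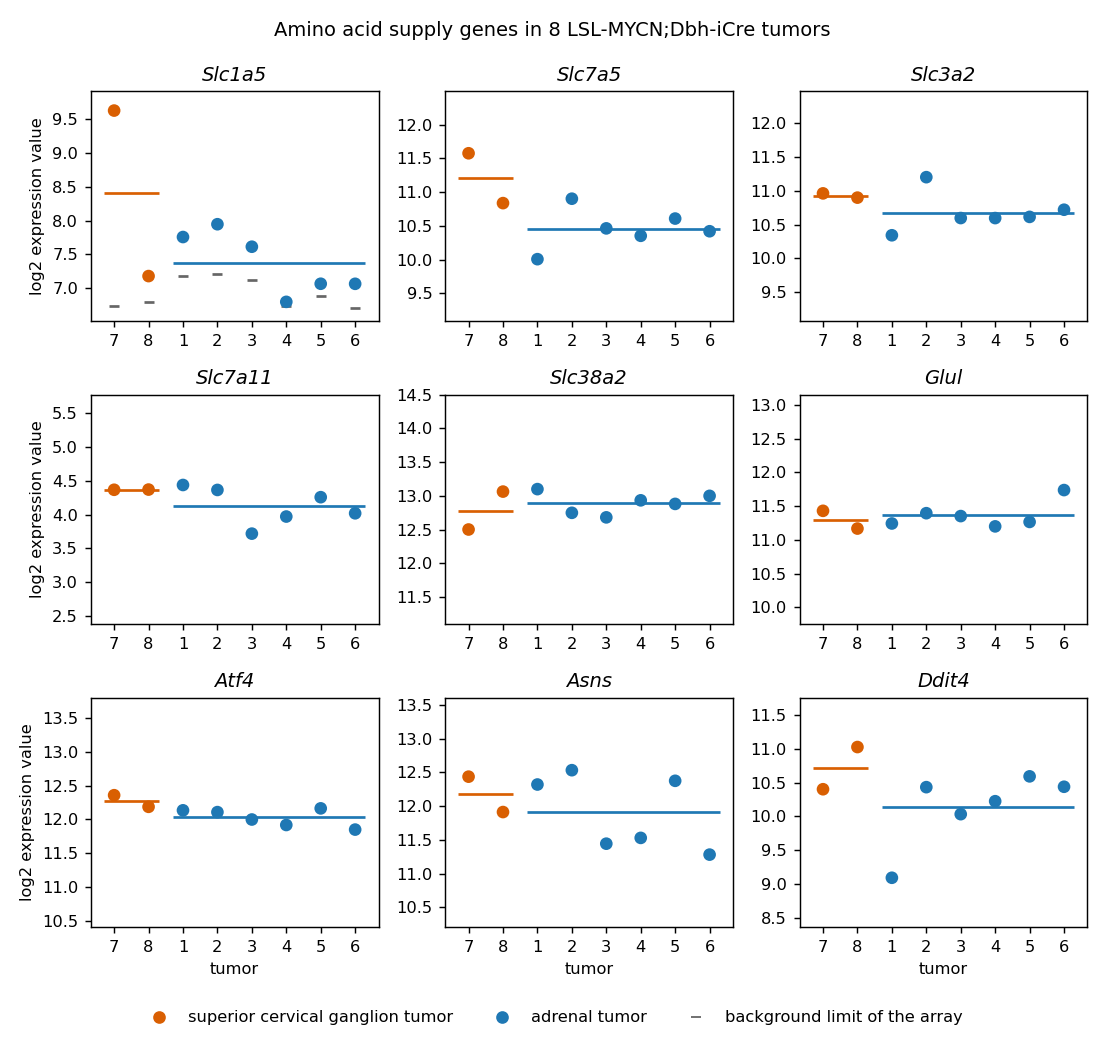
Log2 expression value (vertical axes, each spanning its own range) of the 9 genes in each tumor (horizontal axes, ganglion tumors 7 and 8 left of adrenal tumors 1 to 6); points are tumors, colored lines are the mean of each site, and grey dashes, drawn where they fall in the range, are the background limit of the array. Slc1a5 reached 9.63 in tumor 7, against 6.80 to 7.95 elsewhere, whereas Slc7a11 was at most 4.44 on the probe set drawn.

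For the comparison of ganglion with adrenal tumors, 1 probe set represented each gene and limma was fitted to the 16254 genes that exceeded log2 5 in 2 tumors or more. None of the 8 members tested passed an adjusted p of 0.05, and 3 of all genes did (0.0185%), all higher in the ganglion tumors: Clvs2 and the muscle genes Acta1 and Tnnt3. The mean of 8 skeletal muscle markers was 7.29 and 6.82 in tumors 7 and 8, against 5.61 to 5.96 in the adrenal tumors, and 5 and 4 of them were detected in tumors 7 and 8, against at most 2 in an adrenal tumor. The part of muscle transcripts in the differences of the members was not tested. At an unadjusted p under 0.05, limma counted 1 member, Slc7a5, and 761 genes in all (4.68%), and the exact permutation test counted no member. With 2 tumors against 6, the exact permutation test has 28 splits and cannot go below p = 0.0357. Fitted over all probe sets instead, none of the 15 tested probe sets of the members passed, and 5 of 30285 did (0.0165%).

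The difference, ganglion minus adrenal, was 1.03 for Slc1a5 (SE 0.57, 95% interval -0.26 to 2.32, limma adjusted p = 0.903, exact permutation p = 0.143), with means of 8.40 in ganglion and 7.37 ± 0.46 in adrenal tumors (SD, n = 6). As a fold this was 2.04, with an interval of 0.836 to 4.99. The value rested on 1 tumor: without tumor 7 the difference was -0.20, and without tumor 8 it was 2.26, each fit leaving 1 ganglion tumor. For Slc7a5 the difference was 0.75 (SE 0.26, interval 0.16 to 1.33, limma adjusted p = 0.903, exact permutation p = 0.0714), or 1.68-fold, with means of 11.21 in ganglion and 10.46 ± 0.30 in adrenal tumors. It kept its direction without tumor 7, at 0.38, and without tumor 8, at 1.12, but passed the adjusted threshold in neither case.

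The other 6 members differed by less. Ddit4 was higher by 0.58 in the ganglion tumors (SE 0.38, interval -0.28 to 1.43), Asns by 0.26 (SE 0.37, interval -0.59 to 1.11), Slc3a2 by 0.25 (SE 0.21, interval -0.22 to 0.72) and Atf4 by 0.24 (SE 0.14, interval -0.07 to 0.56). For Slc38a2 the difference was -0.11 (SE 0.18, interval -0.52 to 0.31) and for Glul -0.07 (SE 0.17, interval -0.46 to 0.32). Limma adjusted p-values of the 8 members ran from 0.903 to 0.982. A doubling between sites lay outside the interval of Slc3a2, Slc38a2, Glul and Atf4, but inside that of Slc1a5, Slc7a5, Asns and Ddit4. Of the 8 differences, 6 were positive, with a median of 0.26, while 44.8% of all genes had a positive difference and their median was -0.03. Ranges of the 2 sites did not overlap for 1 member, Atf4, and for 4.42% of all genes. The Atf4 difference was turned to -0.17 when the median over its probe sets was used.

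**Figure D3:**
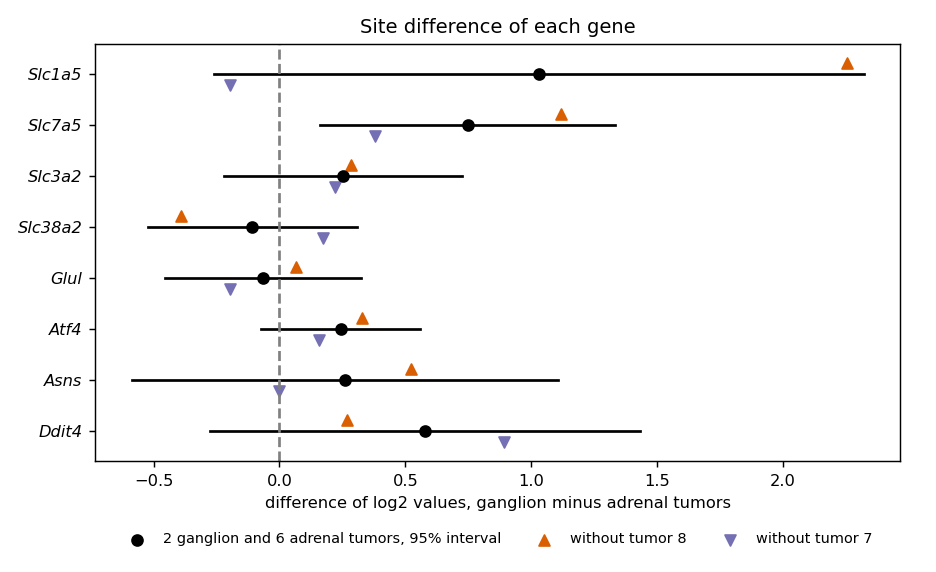
Difference of log2 values, ganglion minus adrenal tumors (horizontal axis), for the 8 genes tested, with the limma estimate (black point), its 95% interval (bar) and the estimates without tumor 8 and without tumor 7 (triangles). Slc1a5 was at 2.26 without tumor 8 and at -0.20 without tumor 7, while Slc7a5 stayed right of 0 in all 3.

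The members did not share an order of tumors. Tumor 7 was the highest for Slc1a5, Slc7a5 and Atf4 and the lowest for Slc38a2, whereas 17.3% of all genes were highest and 26.4% lowest in it. Tumor 2 was the highest for Slc3a2 and Asns (16.2% of all genes), tumor 6 the highest for Glul and the lowest for Atf4 and Asns, and tumor 8 the highest for Ddit4 and the lowest for Glul. Of the 36 pairs of members, 24 had a positive Pearson r and 6 had an unadjusted exact permutation p under 0.05, but none passed after adjustment, the smallest adjusted p being 0.221. By Spearman's rho, 1 pair had an unadjusted p under 0.05 and none passed.

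Atf4 and Asns were among these 6 pairs. Their Pearson r was 0.81 (exact permutation p = 0.0144, adjusted p = 0.221) and rho was 0.67 (p = 0.0831, adjusted p = 0.519), with r = 0.73 when tumors 6 and 7 were left out. Slc1a5 and Atf4 had r = 0.73 (p = 0.0369, adjusted p = 0.221, exact permutation, rho = 0.60, p = 0.132), which was 0.18 without tumors 4 and 7. Slc38a2 ran opposite to Slc1a5 (r = -0.74, exact permutation p = 0.0280, rho = -0.43, p = 0.299) and to Slc7a5 (r = -0.73, exact permutation p = 0.0343, rho = -0.64, p = 0.0962), with the same adjusted p of 0.221 for r. Without the 2 farthest tumors these became -0.38 and -0.02, so they rested on those tumors. The remaining pair, Slc7a11 with Asns, involves values at background.

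**Figure D4:**
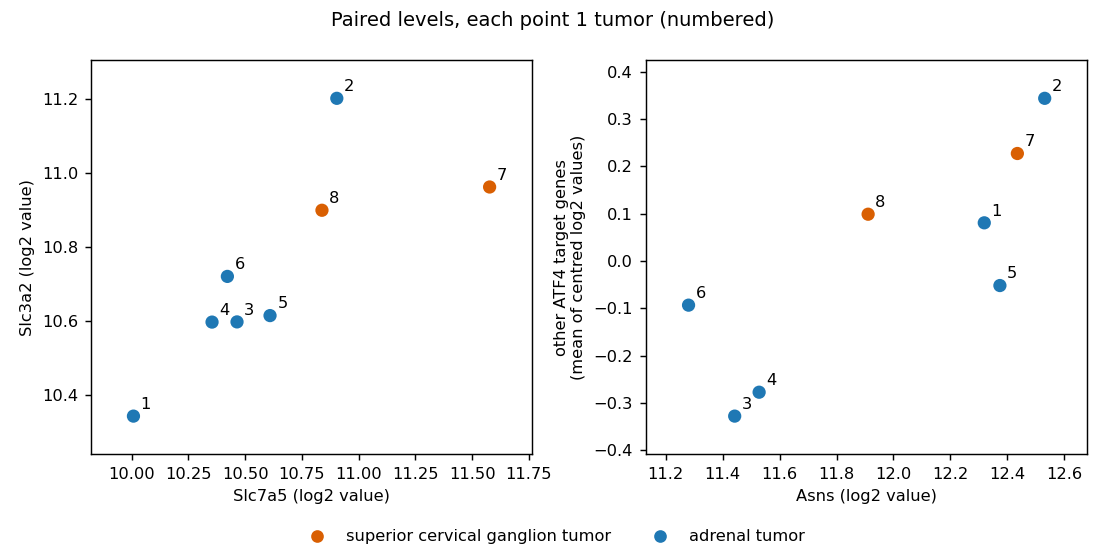
Each point is 1 tumor, numbered, ganglion in orange and adrenal in blue. The left panel plots log2 values of Slc3a2 against Slc7a5 (r = 0.78), and the right panel the mean of 25 other Atf4 target genes, each centred on its own mean, against the log2 value of Asns (r = 0.80).

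Of 25 other genes measured that Atf4 is known to activate, 20 were detected in all tumors. None passed the site comparison, and 17 had a positive difference, against 44.8% of all genes. The median difference of the 25 was 0.11, against -0.03 over all genes. Of the 25, 10 had their highest value in tumor 2, against 16.2% of all genes. Among these 10 were the pseudokinase Trib3, the glutathione-degrading enzyme Chac1, the transcription factor Atf3 and the stress protein Sesn2. Trib3 reached 9.06 in tumor 2, against 7.50 to 8.12 elsewhere. Chac1 reached 9.01 in tumor 2, against 7.27 to 8.41 elsewhere. These 4 were singled out after their values were seen.

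The mean of the 25 genes, each centred on its own mean, was 0.23 in tumor 7 and 0.10 in tumor 8, and 0.34 in tumor 2, 0.08 in tumor 1, -0.05 in tumor 5, -0.09 in tumor 6, -0.28 in tumor 4 and -0.33 in tumor 3. Tumors 3 and 4 were thus low both in this mean and in Asns. Over the 8 tumors, Asns and this mean had r = 0.80 (exact permutation p = 0.0212, adjusted p = 0.0953 over 36 pairs of a member and a list) and rho = 0.83 (p = 0.0154, adjusted p = 0.138), with r = 0.79 without tumors 3 and 6. The relation did not pass the correction. In tumor 7 the mean of the 25 genes was raised by few of them. Shmt2 exceeded the mean of the other tumors by 3.39 and Phgdh by 3.34, the largest such differences in the list. The median of this difference over the 25 genes was 0.04, and 7 of the 25 were highest and 5 lowest in tumor 7.

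The 6 genes of serine synthesis and one-carbon metabolism among the 25 were grouped after their values were seen, and they did not share an order. Psat1, which makes phosphoserine with glutamate as nitrogen donor, reached 12.27 in tumor 7, against 10.86 to 11.30 elsewhere. Phgdh, the first enzyme of serine synthesis, was 11.99 in tumor 7 and 8.04 to 9.31 elsewhere. Shmt2, which turns serine into glycine in mitochondria, was 11.54 in tumor 7 and 7.44 to 8.68 elsewhere. These 3 were high in tumor 7. Psph, which completes serine synthesis, was lowest there, with 8.14 in tumor 7, against 8.33 to 9.30 elsewhere, and so was Aldh1l2, a mitochondrial folate enzyme, with 8.92 in tumor 7, against 9.06 to 9.58 elsewhere. Mthfd2, the mitochondrial folate enzyme, was 11.10 in tumor 7 and 11.47 in tumor 8, against 10.89 to 11.89 in the adrenal tumors. Elsewhere in the list, Cth, which makes cysteine from cystathionine, had 9.05 in tumor 6, against 5.67 to 7.80 elsewhere, and was detected in 3 tumors. Fgf21, a secreted hormone, was detected in no tumor.

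Among 32 other amino acid carriers, 22 were detected in all tumors and 12 had their highest value in tumor 7 (17.3% of all genes). Of 31 tested, none passed and 19 had a positive difference (44.8% of all genes), with a median of 0.20. Slc7a1, the carrier of arginine and lysine, was 13.00 in tumor 7 and 12.18 in tumor 8, against 11.78 to 12.18 in the adrenal tumors. Slc38a1, a glutamine carrier related to Slc38a2, was 12.38 and 12.61 in tumors 7 and 8 and 12.30 to 12.71 in the adrenal tumors, so the sites overlapped fully. Slc38a4, another relative, was 10.48 in tumor 7, below the 12.06 to 12.72 of the other 7 tumors. Slc38a3, which carries glutamine in liver and kidney, was 9.78 in tumor 6 and 7.36 to 7.57 elsewhere. Slc3a1 and Slc38a5 were detected in no tumor. Slc38a4 and Slc38a3 were named after their values were seen, and Slc38a3, like Glul, was highest in the tumor with hepatocyte markers.

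Enzymes that use or make glutamine and glutamate numbered 15, of which 13 were detected in all tumors. None passed, 10 had a positive difference (44.8% of all genes) and the median was 0.10. Among them 5 were highest in tumor 7 (17.3% of all genes). These included Got2, the mitochondrial aspartate transaminase, with 13.20 in tumor 7 and 12.76 in tumor 8, against 11.99 to 12.78 in the adrenal tumors. Aldh18a1, which starts proline synthesis from glutamate, was 12.30 and 11.54 in tumors 7 and 8, and 11.42 to 12.42 in the adrenal tumors. Prodh, the first enzyme of proline breakdown, was detected in 3 tumors, as was Gfpt2, an enzyme of hexosamine synthesis. The glutaminases were not analysed here.

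All 19 cytosolic aminoacyl-tRNA synthetases measured were detected, 18 of them in every tumor. These enzymes load amino acids onto tRNA, and many are Atf4 targets. None passed the site comparison, but 17 of the 19 differences were positive, with a median of 0.19, against 44.8% positive over all genes. Of the 19, 9 had their highest value in tumor 7 and 8 their lowest in tumor 1, against 17.3% and 11.5% of all genes. Tumor 1 is the adrenal tumor with the large 3′ to 5′ difference of Gapdh, whose part in these differences was not tested. Nars was 12.79 in tumor 7 and 12.85 in tumor 8, against 12.32 to 12.93 in the adrenal tumors. Gars was 12.57 and 12.59 in tumors 7 and 8, and 12.04 to 12.85 in the adrenal tumors, so the sites overlapped for both. Ranges did not overlap for 3 of the 19 genes, each higher in the ganglion tumors, and for 4.42% of all genes. Farsa had 7.99 in tumor 1, against 9.03 to 9.62 elsewhere. Cars had 6.76 in tumor 1, against 7.97 to 8.63 elsewhere.

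The kinases and exchange factor subunits that act on eIF2, upstream of Atf4, had a mean of 0.33 in tumor 7, against -0.07 to -0.01 in the other 7 tumors. Of 11 genes, 5 were highest in tumor 7 and none was lowest there, against 17.3% and 26.4% of all genes. None of the 11 passed the site comparison. Eif2b4, a regulatory subunit of eIF2B, was 11.12 and 10.73 in tumors 7 and 8, and 10.62 to 11.22 in the adrenal tumors. Eif2b5, the catalytic subunit of eIF2B, was 11.26 and 10.90 in tumors 7 and 8, and 10.56 to 10.82 in the adrenal tumors. Eif2ak4, the kinase that senses uncharged tRNA, was 8.82 and 8.70 in tumors 7 and 8 and 8.62 to 9.25 in the adrenal tumors, and is named here for its role, with its values known. Eif2ak1, the kinase activated by lack of heme, was 8.75 and 8.10 in tumors 7 and 8 and 8.00 to 8.79 in the adrenal tumors, and Eif2ak2, the kinase activated by double-stranded RNA, was detected in 1 tumor. The sites thus overlapped for Eif2b4, Eif2ak4 and Eif2ak1, whereas both ganglion tumors lay above the adrenal tumors for Eif2b5. In all, ranges of the sites did not overlap for 3 of the 11 genes, each higher in the ganglion tumors, and for 4.42% of all genes. Other lists held such genes too, higher in the ganglion tumors. They were 2 of 12 hypoxia genes, 1 of 8 glucocorticoid genes, 1 of 31 other carriers and 1 of 25 other Atf4 targets. Of the 15 glutamine and glutamate enzymes, 1 was lower there without overlap.

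Downstream, 28 genes of mTORC1 and of its amino acid sensors were measured, 27 of them detected in all tumors. None passed, 9 differences were positive (44.8% of all genes), and the median was -0.10. Rheb, the GTPase that switches mTORC1 on, was 12.72 and 12.94 in tumors 7 and 8, and 12.75 to 13.08 in the adrenal tumors. Lamtor5, a subunit of the complex that holds mTORC1 at the lysosome, was 12.58 and 12.57 in tumors 7 and 8, and 12.20 to 13.12 in the adrenal tumors. Wdr59, of the GATOR2 complex, was at 7.61 in both ganglion tumors and 7.46 to 8.07 in the adrenal tumors. Of the 28, 12 had their highest value in tumor 1, as did 26.3% of all genes. Castor1, an arginine sensor, was detected in no tumor.

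Genes of glutathione and the redox response lie downstream of cystine uptake, and of 13 measured 12 were detected in all tumors although Slc7a11 was not. None passed, and the median difference was 0.04. Gpx4, the lipid peroxide reductase that needs glutathione, was 12.16 in tumor 7 and 12.82 in tumor 8, against 12.39 to 12.72 in the adrenal tumors. Txnrd1, a thioredoxin reductase, was 11.90 and 11.63 in tumors 7 and 8, and 11.27 to 11.92 in the adrenal tumors. Ggct, which degrades gamma-glutamyl peptides, was 8.54 and 7.58 in tumors 7 and 8, and 7.25 to 8.48 in the adrenal tumors. Nqo1, a target of the redox factor Nfe2l2, was detected in no tumor.

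Ddit4 answers to hypoxia and to glucocorticoids as well as to Atf4, so both responses were set beside it. The 12 hypoxia genes had means of -0.22 in tumor 7 and 0.17 in tumor 8, and of -0.13 to 0.15 in the adrenal tumors. The 8 glucocorticoid genes had means of 0.54 in tumor 7 and 0.14 in tumor 8, and of -0.35 to 0.15 in the adrenal tumors. Neither list had a gene that passed the site comparison. Over the tumors, Ddit4 had r = 0.25 with the hypoxia mean (exact permutation p = 0.576, adjusted p = 0.715, rho = 0.50, p = 0.216, r = 0.44 without tumors 1 and 8) and r = 0.46 with the glucocorticoid mean (exact permutation p = 0.243, adjusted p = 0.371, rho = 0.52, p = 0.197, r = 0.60 without tumors 1 and 8). Of the hypoxia genes, Bnip3 was 11.60 and 11.87 in tumors 7 and 8, and 11.16 to 12.09 in the adrenal tumors. Ndrg1 had 10.02 in tumor 7, against 11.11 to 11.73 elsewhere. Adm was detected in 7 tumors and Car9 in none. Of the glucocorticoid genes, Tsc22d3 was 11.11 and 12.16 in tumors 7 and 8, and 11.55 to 11.78 in the adrenal tumors. Klf9 was 11.44 and 11.17 in tumors 7 and 8, above the 9.91 to 10.99 of the adrenal tumors. Sgk1 had 11.09 in tumor 7, against 8.28 to 9.59 elsewhere, and Zbtb16 was detected in 3 tumors. Of the 36 pairs of a member and a list, none passed after adjustment, and among detected members the pair with the highest r was Slc7a5 with the glucocorticoid mean (r = 0.88, exact permutation p = 0.00548, adjusted p = 0.0658, rho = 0.88, p = 0.00724, adjusted p = 0.13, r = 0.82 without tumors 1 and 7).

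The 8 immediate early and heat shock genes, which can rise while tissue is handled, had means of 1.60 in tumor 7, 0.20 in tumor 8 and 0.93 in tumor 2, and of -0.77 to -0.29 in the other adrenal tumors. Tumors 7 and 2 were also the tumors in which 3 and 2 of the 8 members tested, and 7 and 10 of the 25 Atf4 target genes, had their highest value. Of all genes, 17.3% were highest in tumor 7 and 16.2% in tumor 2. The 2 tumors differed on the low side. Tumor 7 was the lowest for 1 of the 8 members and 5 of the 25 Atf4 target genes, and tumor 2 for none of either. Of all genes, 26.4% were lowest in tumor 7 and 8.04% in tumor 2. The part of tissue handling in these values was not tested. Slc7a5 had r = 0.88 with this mean (exact permutation p = 0.00429, adjusted p = 0.0658, rho = 0.74, p = 0.0458, adjusted p = 0.192, r = 0.88 without tumors 1 and 7). For Slc1a5 r was 0.83 (exact permutation p = 0.0150, adjusted p = 0.0848, rho = 0.69, p = 0.0694), and 0.42 without tumors 4 and 7. For Slc3a2 r was 0.79 (exact permutation p = 0.0165, adjusted p = 0.0848, rho = 0.83, p = 0.0154), and 0.92 without tumors 1 and 2. These 3 carriers thus varied with the immediate early and heat shock genes before the correction, and none of the 3 relations passed it. Carriers also varied with the hypoxia mean before the correction. For Slc38a2 r was 0.83 (exact permutation p = 0.0119, adjusted p = 0.0848, rho = 0.71, p = 0.0576), and 0.41 without tumors 3 and 7. For Slc1a5 r was -0.78 (exact permutation p = 0.0126, adjusted p = 0.0848, rho = -0.62, p = 0.115), and -0.64 without tumors 4 and 7. Jun and Egr1 were detected in all tumors, Junb in 1 and Fosb in none.

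**Figure D5:**
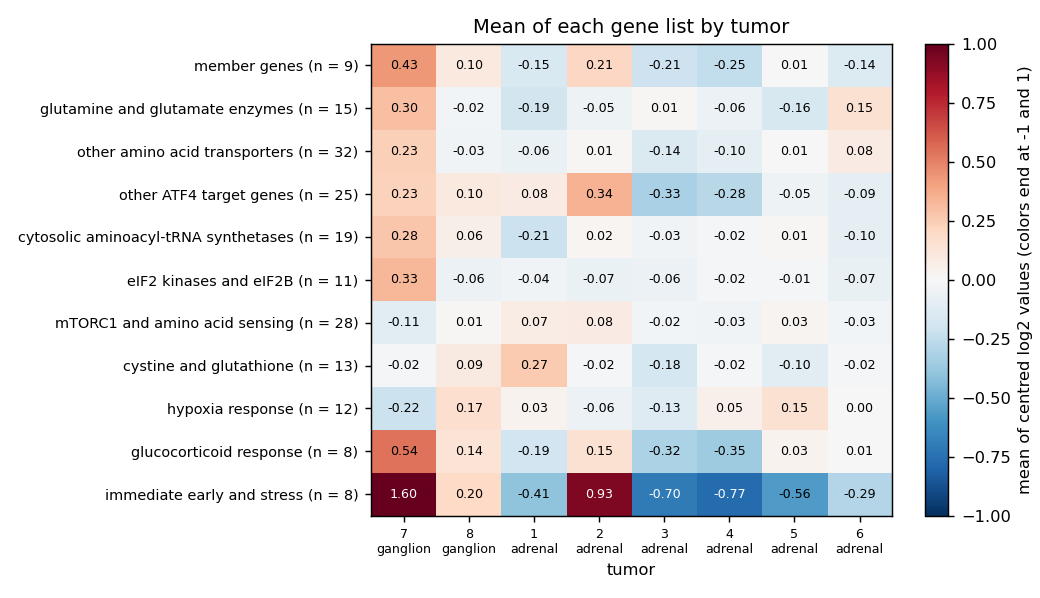
Mean of log2 values, each gene centred on its mean over the 8 tumors, for the 9 genes and 10 other gene lists (rows) in each tumor (columns, ganglion left of adrenal), with n the genes measured and colors ending at -1 and 1. The 9 genes averaged 0.43 in tumor 7, 0.10 in tumor 8 and -0.25 to 0.21 in the adrenal tumors. The value in tumor 7 was not shared by all: Slc1a5 exceeded the mean of the other tumors by 2.28, while Slc38a2 was lowest in tumor 7.

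For the 3 members with an SD of at least 0.5, the genes most like them over the 8 tumors were sought among 2492 genes of at least that SD. Slc1a5 was most like Ddn (r = 0.98), Grid1 (r = 0.98) and Chst7 (r = 0.97), all of which had their highest value in tumor 7. Ddn, for example, reached 8.28 in tumor 7, against 6.07 to 6.81 elsewhere, so these coefficients describe 1 tumor against 7. Asns was most like Gaa (r = 0.94), Hddc2 (r = 0.91) and Ap1s3 (r = 0.90), and Ddit4 most like Trim66 (r = 0.92), Tk2 (r = 0.90) and Vapb (r = 0.89). Each coefficient was the highest of many and is a description over the same 8 arrays.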

How the data were processed

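The authors profiled RNA from 8 tumors on Affymetrix arrays and deposited log2 values for 45101 probe sets, already corrected for background and normalized between arrays. RMA and Partek 6.6 appear in the submitters' processing notes but gcRMA in the Methods, and the values do not settle which was used. No 2 arrays were identical. Probe sets were named from the platform annotation (34958 with 1 gene, 932 with several, 9211 unnamed), with symbols updated through the RefSeq table of GRCm38.p6 (34754 matched).

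The probe set with the highest mean stood for its gene. The 16254 genes that exceeded log2 5 in 2 tumors or more were tested in R 4.3.3 by limma 3.58.1 with moderated variances (eBayes), and p-values were adjusted over all of them by Benjamini-Hochberg with a threshold of 0.05. On simulated data of this size and layout, 91 of 100 genes changed by 2 and 53 of 100 changed by 1 were recovered, with 9 false calls. The simulated tumors of both sites were given the spread of the adrenal tumors. In the data the ganglion tumors could lie far apart, with Slc1a5 at 9.63 in tumor 7 and 7.18 in tumor 8. The simulated rates therefore do not give the power of the site comparison. The site difference of each member and the correlations were tested by exact two-sided permutation, computed with numpy 2.4.6. Ranks and the adjustment of correlation p-values came from scipy 1.17.1, and plots were drawn with matplotlib 3.10.9. Precision is limited by the number of arrays.

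The members and all lists were chosen with earlier results of these data known, and no list is independent support. Named genes are the members with all probe sets, the 2 highest and 2 lowest by mean of each list other than the cell type markers together with its called genes, and the 3 genes most like each member of an SD of at least 0.5; names outside this rule are marked, apart from marker genes and the called gene Clvs2, which were named with their values known. Alternatives covered the normalization, filter, probe set per gene, test, detection limit and leaving out each tumor in turn. The fits without tumors 6 and 7 and those over probe sets were added after seeing the data. Normal adrenals were not analysed here.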

Additional observations from a re-analysis of the deposited data

Results flagged for a closer look

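Each of 28 measures, the 17 probe sets and 11 list means, was checked for a tumor far from the rest of its group by the gap to the nearest other tumor divided by the whole range and set against Dixon's critical value for 6 or 8 tumors. Chance marks about 1 in 20 groups. Over the adrenal tumors 4 measures were marked and over all tumors 5, of which 4 had tumor 7 as the far one.

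Tumor 7 was far above the other 7 tumors in both Slc1a5 probe sets, with a ratio of 0.594 for 1416629_at (9.63, against 6.80 to 7.95) and 0.624 for 1440379_at (6.92, against 6.20 to 6.47). The Slc7a11 probe set 1420413_at gave 0.542 (4.54 in tumor 7, against 4.01 to 4.26), with all values below background. The mean of the eIF2 kinases and eIF2B gave 0.857 (0.33 in tumor 7, against -0.07 to -0.01).

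Glul on 1426236_a_at had tumor 6 far above the rest, with 0.637 over the adrenal tumors (11.74, against 11.20 to 11.39) and 0.539 over all tumors (against 11.17 to 11.43). Tumor 1 was far below the other adrenal tumors in Ddit4, with 0.627 (9.09, against 10.03 to 10.59), and far above them in the mean of the cystine and glutathione genes, with 0.636 (0.27, against -0.18 to -0.02). For the immediate early and stress genes, tumor 2 was far above the other adrenal tumors, with 0.72 (0.93, against -0.77 to -0.29).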

How the results depend on the processing

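Of the differences of single members under the alternatives, 102 kept their direction and their side of the threshold, 9 turned sign and 1 came to pass. Without tumor 7 the difference, ganglion minus adrenal, was -0.20 for Slc1a5, 0.17 for Slc38a2 and -0.0015 for Asns, and with tumors 6 and 7 left out, it was -0.26, 0.19 and -0.13 for the same genes. Glul was at 0.0078 without tumor 6 and at 0.065 without tumor 8, and Atf4 at -0.17 with the median over probe sets. Slc1a5 passed without tumor 8, at 2.26, where the lone ganglion tumor is assumed to vary like the adrenal ones. The member genes that passed numbered 0 to 1 when each tumor was left out in turn, likewise 0 to 1 for member probe sets, and 0 under all other alternatives run. Over all genes the count of 3 became 6 with the median over probe sets, 9 with tumors 6 and 7 left out, and 2 to 951 when each tumor was left out in turn, being 8 without tumor 7 and 951 without tumor 8. The count of detected members was 8, and 7 both against the 99th percentile, where Slc1a5 was detected in 5 tumors, and with the median over probe sets; it stayed 8 under the other alternatives run. Of the mean levels, 96 moved by less than their SD and 3 moved with the median over probe sets, to 10.04 for Slc38a2, 9.65 for Glul and 11.29 for Atf4. The count of correlated pairs stayed 0 without tumor 7. The causes of these shifts were not tested. Array medians differed from their mean by at most 0.04. No paired analysis was possible because the tumors were numbered in deposit order and nothing pairs a ganglion with an adrenal tumor.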
